A study of Mus musculus with 12 samples.

Results

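The response of 6-MP pretreated ENS primary cultures to LPS was described from 6 of the 12 arrays of the study, over all 22206 transcript clusters measured on each. Cells came from the gut of e14.5 mouse embryos of the Sox10flox line and were grown as a mixed culture that holds enteric neurons and glia among other cells. The embryonic day is that of the labels, the methods give a wider range of stages, and the methods state that the modification of the Sox10flox line had no bearing on the study. Both groups received 50 µM 6-MP for 16 h. The 6MP+LPS group (3 arrays) was then given 10 ng/ml of LPS over 6 h and the 6MP group (3 arrays) received no LPS. Whether the 6MP cultures stayed in culture for those further hours is not stated in the sources used here. The members were the 3 arrays titled for 6MP+LPS and the 3 titled for 6MP, and the 3 LPS arrays (LPS without 6-MP) and 3 untreated control arrays gave the response without 6-MP. All 12 arrays entered the fit and share 1 estimate of the spread. The RNA is stated to come from 3 independent experiments, but not whether cultures of 1 experiment share a replicate number.

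LPS, the main glycolipid of the outer membrane of Gram-negative bacteria, is bound by LBP and CD14 and sensed by TLR4 with its partner MD-2. The adaptor MyD88 then leads to NF-kB and MAP kinases, which switch on cytokine and chemokine genes, and the adaptor TRIF leads to interferon, whose receptors act through JAK kinases and their factors on interferon-stimulated genes. In the gut wall macrophages, glia, mesenchymal cells and epithelium can all take part in such a response. 6-MP is a thiopurine given in inflammatory bowel disease, which cells turn into thioguanine nucleotides through the enzyme HPRT and inactivate through TPMT.

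Each value below is the deposited log2 value of 1 transcript cluster, and a change is the mean of the 6MP+LPS arrays minus that of the 6MP arrays. A cluster is called at a Benjamini-Hochberg adjusted p under 0.05 from limma and a fold of at least 2. Where a group mean lay under 5.78, a silent level set at the 90th percentile of the means of 1452 sensory receptor clusters (olfactory, vomeronasal, taste), the fold is given as a bound, for which each array's value below that level was set to it before averaging. Array medians lay between 7.41 and 7.53. On principal component 2 (25% of the variance) 1 array of each group stood apart, with scores of 48.2 (6MP+LPS 1), 45.7 (6MP 1), 42.1 (LPS 2) and 33.2 (control 2), against -32.5 to -8.16 in the other 8 arrays. The neuronal RNA-binding protein gene Elavl4 was measured at 10.62 to 11.79 in 6MP+LPS arrays and 10.82 to 11.99 in 6MP arrays, and the smooth muscle actin gene Acta2 at 17.41 to 18.42 over both groups. The glial marker genes S100b and Sox10 had means of 3.77 and 5.29 in 6MP+LPS arrays and 3.72 and 5.47 in 6MP arrays, all under 5.78. Of the 15 measured genes of the enteric glial list, though, only 4 had a mean over all arrays under that level. The mean level of that list was 7.97 to 8.18 in 6MP+LPS arrays and 8.32 to 8.46 in 6MP arrays. Since these are bulk cultures, fewer cells of a type and less RNA per cell cannot be told apart.

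LPS changed the 6-MP pretreated cultures mostly upwards. Of the 22206 clusters, 320 (1.44%) were called, 291 of them higher (1.31%) and 29 lower (0.131%), so 90.9% of the called clusters rose. With bounds used for dim genes, 169 rose at least 4-fold, 73 at least 10-fold and 6 at least 100-fold, while 0 of the 29 fell as much as 4-fold. In 26 called clusters 1 group mean lay under the silent level, and in 3 both did. An unadjusted p under 0.05 was reached by 2479 of the 22206 clusters, the share to set beside list counts given at that p below. The 3 arrays of one group lay wholly beyond those of the other in all 320 called clusters. Over all clusters tested that held for 14.8%, with 7.13% wholly above and 7.64% wholly below. The 15 largest rises were Cxcl2, Tnf, Cxcl10, Il1b, Acod1, Cxcl1, Tgtp2, Ccl2, Ccrl2, Il6, Gbp2, Il1a, Cxcl9, Clec4e and Cxcl5, and the 5 largest falls Fabp7, Apobec1, Hpgds, Inpp5d and Nceh1. With 3 arrays a group, the smallest p an exact two-sided permutation test can give is 0.1, so calls rest on limma. Leaving out single arrays gave 179 (without 6MP 3) to 279 clusters higher and 13 (without 6MP+LPS 3 or 6MP 3) to 60 (without 6MP+LPS 1) lower, with 19 lower without 6MP+LPS 2. With the 2 compared groups alone in the fit, 196 were higher and 6 lower. The methods' t-test is the Student test they give for 2 groups, and is not stated to be the test run on the arrays. It called 0 of all clusters after adjustment (lowest adjusted p of 0.195), so it says nothing about any list given below. Without the 4 arrays that stand apart, 311 clusters were higher and 120 lower.

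The promoters of 4 genes among the largest rises are shown because they hold the letters of motifs for the 2 factor families of the LPS pathway. A κB motif was searched as GGGA, any base, TT, any base and CC in a row, and an interferon-stimulated response element (ISRE) as GAAA, any 2 bases and GAAA, on both strands, in the 250 bases before each RefSeq start site (build GRCm38.p6). These are the first 4 of the largest rises with a match. Of the other largest rises, Il6 held a κB match and Gbp2 an ISRE match. Tnf, Il1b, Acod1, Ccrl2, Il1a, Cxcl9 and Clec4e held neither motif, and Ccl2 and Cxcl5 had no promoter to search. Each window is read 5′ to 3′ on the gene's strand up to the start site, with matches in capitals.
Cxcl2: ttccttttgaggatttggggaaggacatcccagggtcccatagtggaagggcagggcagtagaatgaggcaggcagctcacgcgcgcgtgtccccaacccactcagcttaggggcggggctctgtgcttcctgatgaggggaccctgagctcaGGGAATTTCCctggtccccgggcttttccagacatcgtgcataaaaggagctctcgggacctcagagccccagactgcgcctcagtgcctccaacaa
Cxcl10: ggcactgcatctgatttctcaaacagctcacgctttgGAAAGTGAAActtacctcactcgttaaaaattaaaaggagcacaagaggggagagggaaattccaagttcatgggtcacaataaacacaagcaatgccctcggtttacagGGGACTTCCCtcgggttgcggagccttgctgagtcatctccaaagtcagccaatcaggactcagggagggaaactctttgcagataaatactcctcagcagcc
Cxcl1: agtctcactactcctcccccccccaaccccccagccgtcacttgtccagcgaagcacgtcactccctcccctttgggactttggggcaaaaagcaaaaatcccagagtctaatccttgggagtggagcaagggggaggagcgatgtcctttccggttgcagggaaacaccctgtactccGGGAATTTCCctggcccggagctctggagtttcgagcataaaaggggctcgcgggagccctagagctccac
Tgtp2: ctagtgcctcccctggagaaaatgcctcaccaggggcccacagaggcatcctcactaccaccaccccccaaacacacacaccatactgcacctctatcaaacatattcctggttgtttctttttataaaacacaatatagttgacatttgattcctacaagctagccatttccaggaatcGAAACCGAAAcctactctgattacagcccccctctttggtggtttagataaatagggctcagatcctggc

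The Cxcl2 window (chr5:90903649-90903898, plus strand) holds the κB letters 97 to 88 bases before the start and the Cxcl1 window (chr5:90890995-90891244, plus strand) the same letters 71 to 62 bases before it. The Cxcl10 window (chr5:92348890-92349139, minus strand) holds an ISRE match 213 to 204 bases and a κB match 103 to 94 bases before the start. The Tgtp2 window (chr11:49064213-49064462, minus strand) holds an ISRE match 70 to 61 bases before it. The promoter table matched 217 of the 283 named genes called higher. κB letters stood in 20 of their 269 promoters (7.43%), against 1.05% of the promoters of all measured genes, and ISRE letters in 38 (14.1%), against 2.97%. Of 9 promoters of called chemokine genes 4 held κB letters, and of 27 promoters of called interferon-stimulated genes 6 held ISRE letters. Neither motif stood in the 33 promoters of genes called lower, which are too few to set against shares of 1.05% and 2.97%. A match is only a description of these letters and was not tested.

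Cxcl2, the gene of a chemokine that draws neutrophils through CXCR2, had the largest change, with log2 values of 13.74, 14.81 and 15.40 in the 6MP+LPS arrays, against 7.46, 6.60 and 5.62 in the 6MP arrays. It rose 272-fold (log2 change 8.09, SE 0.62, adjusted p = 2.11e-05). Its 2 groups lay far apart, with array 1 the lowest of the 6MP+LPS arrays and the highest of the 6MP arrays. The related gene Cxcl1 reached 12.56, 12.40 and 14.10 in 6MP+LPS arrays, against 6.68, 6.28 and 6.09 in 6MP arrays, a rise of 102-fold (log2 change 6.67, SE 0.41, adjusted p = 5.92e-06). Cxcl5, another CXCR2 ligand, was measured at 12.28, 12.20 and 13.53, against 7.56, 7.01 and 5.57, and rose 62.2-fold (adjusted p = 0.000176). In each of these neutrophil chemokine genes every 6MP+LPS array lay far above every 6MP array.

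Cxcl10, an interferon-inducible ligand of CXCR3 on T cells, was at 16.66, 16.35 and 16.72 in 6MP+LPS arrays, against 9.89, 9.57 and 7.18 in 6MP arrays (rise of 207-fold, log2 SE 0.55, adjusted p = 1.32e-05). The 6MP+LPS values lay close together and the spread was in the 6MP arrays. Cxcl9, a second CXCR3 ligand, was at 12.37, 11.94 and 10.71, against 6.35, 5.89 and 4.89, and rose at least 50.8-fold (adjusted p = 4.81e-05). Cxcl11, the third, was at 13.14, 10.20 and 9.58, against 7.39, 6.96 and 4.51 (log2 change 4.69, SE 0.98, adjusted p = 0.0306), a call that ended without 6MP+LPS 1, 6MP+LPS 2, 6MP 2 or 6MP 3 (adjusted p of 0.0709, 0.0611, 0.0672 and 0.146). Its array 6MP+LPS 1 lay well above the other 6MP+LPS arrays. Of 15 CXC chemokine genes measured, 7 rose and none fell, with a list median of 1.08 beside -0.0329 over all clusters. Cxcl12, the constitutive chemokine of stromal cells, changed by -0.18 (adjusted p = 0.929).

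Among the CC chemokines, Ccl2, which recruits monocytes through CCR2, was at 15.89, 16.33 and 16.70 in 6MP+LPS arrays, against 10.81, 10.39 and 8.23 in 6MP arrays, a rise of 90.2-fold (log2 SE 0.63, adjusted p = 0.000143). Ccl7, also a CCR2 ligand, rose 44.5-fold, Ccl5 42.9-fold and Ccl3 41.7-fold, and the highest of their adjusted p was 1.16e-05. Ccl4 was the most even, at 11.45, 11.10 and 11.78, against 7.33, 7.36 and 7.31 (log2 change 4.11, SE 0.26). Of 20 CC, XC and CX3C genes measured 9 rose and none fell (median 1.26). The eosinophil chemokine gene Ccl11 rose 9.18-fold, while Ccl20 had a change of 1.82 and was not called (adjusted p = 0.0858). Ccrl2, an atypical receptor that binds chemerin, was at 12.62, 12.76 and 13.04, against 7.09, 6.22 and 5.77, and rose 87.5-fold (adjusted p = 5.92e-06).

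**Figure D1:**
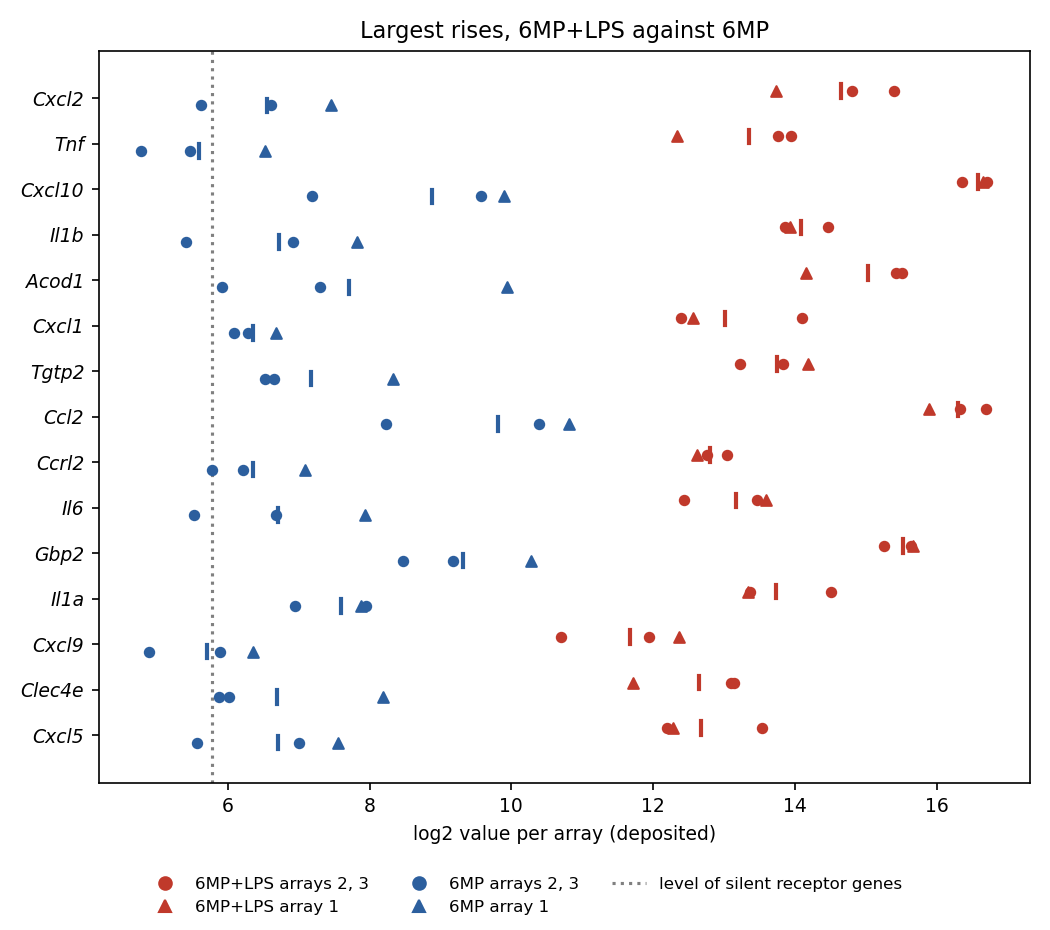
Log2 values of the 15 genes with the largest rises, 1 point per array (triangles are array 1, which stands apart on component 2 in both groups), with group means as bars and the silent level dotted. The genes were chosen among those whose 2 groups did not overlap.

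Of the cytokines, Tnf was at 12.33, 13.76 and 13.94 in 6MP+LPS arrays, against 6.53, 5.46 and 4.78 in 6MP arrays, and rose at least 159.7-fold (log2 change 7.76, SE 0.50, adjusted p = 5.92e-06). Il1b, the inflammasome-processed pyrogen, was at 13.93, 13.86 and 14.47, against 7.83, 6.91 and 5.41, and rose 165-fold (adjusted p = 8.24e-06). In both genes array 1 was the highest of the 6MP arrays. Il1a rose 70.7-fold and Il6, which drives the acute-phase response, 87.4-fold. Il6 was at 13.59, 12.43 and 13.47 in 6MP+LPS arrays, against 7.94, 6.67 and 5.53 in 6MP arrays (adjusted p = 8.83e-05). Of the IL-1 list 3 of 14 measured genes rose, Il1b, Il1a and the receptor gene Il1r1 (log2 change 1.45), and of the IL-6 list 3 of 11, Il6, the cytokine gene Lif (1.35) and the receptor gene Osmr (1.42). Of 23 genes of the TNF superfamily 5 rose, among them the TNF receptor gene Tnfrsf1b (3.41) and the death receptor gene Fas (3.09, adjusted p = 2.25e-05).

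Il22, a cytokine of lymphoid cells that acts on epithelium, was at 11.88, 8.44 and 11.41 in 6MP+LPS arrays, against 5.16, 5.57 and 5.31 in 6MP arrays, and rose at least 27.9-fold (adjusted p = 0.00903, or 0.0506 without 6MP+LPS 3). The second 6MP+LPS array lay between the others and the 6MP arrays. The lymphocyte list was near the silent level, its mean over 12 measured genes lying between 4.79 and 4.92 in 6MP+LPS arrays and between 4.82 and 4.90 in 6MP arrays. In the same family Il12b rose by 2.51 (adjusted p = 0.0029), and 4 of 18 genes rose in all, or 2 without 6MP+LPS 3. Csf1, the macrophage growth factor, was at 15.92, 16.52 and 16.86, against 13.69, 13.76 and 13.64, and rose 6.67-fold (adjusted p = 0.000106). The granulocyte factor gene Csf3 (change 1.04, adjusted p = 0.062) and Csf2 (1.12, adjusted p = 0.23) were not called.

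The genes of LPS sensing moved in both directions. Cd14 was at 11.39, 12.37 and 12.48 in 6MP+LPS arrays, against 9.01, 9.18 and 8.57 in 6MP arrays, and rose 8.93-fold (adjusted p = 0.000243). Tlr2, the receptor for bacterial lipopeptides, rose 6.90-fold (adjusted p = 0.01), but not past the threshold without 6MP+LPS 2 (0.0506) or 6MP 3 (0.059). Irak3, an inhibitor of this signalling, rose 7.98-fold, Tlr3 6.44-fold and Lbp 5.24-fold. The receptor gene Tlr4 itself was at 8.41, 8.73 and 9.04, against 8.87, 9.41 and 9.08, and was not called (change -0.39, adjusted p = 0.661). Cd180, a TLR-like protein that restrains TLR4, was at 8.66, 7.90 and 8.68, against 9.46, 9.63 and 10.01, and fell by 1.28 on the log2 scale (adjusted p = 0.0323). That call ended without 6MP+LPS 2, 6MP+LPS 3, 6MP 2 or 6MP 3 (0.126, 0.0558, 0.0897 and 0.156) and with the replicate number as a block (0.0738). It also ended after quantile normalization and with the 2 compared groups alone in the fit. Of 17 genes of the list 7 rose and 1 fell, with a median of 0.466.

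NF-kB is held in the cytoplasm by IkB proteins, and many of its target genes encode its own inhibitors. Tnfaip3, which encodes the inhibitor A20, was at 12.95, 13.47 and 14.33 in 6MP+LPS arrays, against 9.88, 9.15 and 8.73 in 6MP arrays, and rose 20.1-fold (adjusted p = 6.17e-05). Nfkbia, the gene of IkBα, rose 7.83-fold (adjusted p = 0.000758), Bcl3 and Nfkb2 rose 7.11-fold and 6.66-fold, and Traf1, dim in 6MP arrays, at least 5.31-fold. Of 25 genes measured 17 rose and none fell, with a median of 1.52. The subunit gene Nfkb1 rose by 1.69 (adjusted p = 0.0032). Rela, the p65 subunit, was at 14.65, 14.76 and 15.18, against 13.67, 13.96 and 13.96, at a fold of 2.0 (adjusted p = 0.0171), and lost its call without 6MP+LPS 3, 6MP 1 or 6MP 3 (0.078, 0.0719 and 0.0549) and with the block on the 6 compared arrays (0.0537). Of 25 AP-1 and immediate early genes Batf alone was called (change 1.27), or 2 genes without 6MP+LPS 1 and 3 without 6MP 1 or without the 4 arrays that stand apart, and 8 had an unadjusted p under 0.05. The largest change of that list was 1.91, in Ier3 (adjusted p = 0.0676, not called), while Fos had a change of 0.05 and Jun 0.24.

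The interferon-inducible GTPases, which attack vacuoles of intracellular microbes, had the highest median of the innate and cell type lists. Of 13 genes 11 rose and none fell (median 4.71), and 11 were called when any single array was left out. Tgtp2 was at 14.19, 13.23 and 13.83 in 6MP+LPS arrays, against 8.33, 6.52 and 6.66 in 6MP arrays, and rose 95.6-fold (adjusted p = 1.86e-05). Gbp2 was at 15.66, 15.64 and 15.26, against 10.28, 9.18 and 8.48, and rose 73.8-fold (log2 SE 0.36, adjusted p = 5.92e-06). The 6MP value of array 1 was the highest in both. Gbp3, Gbp4 and Iigp1 rose 52.7-fold, 33.2-fold and 27.9-fold. Gvin1 (2.53, adjusted p = 0.188) and Gbp8 (1.07, adjusted p = 0.494) were not called.

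Of 48 antiviral interferon-stimulated genes measured, 33 rose and none fell, with a median of 2.89, and all 48 changes were above 0. Ddx58, the RNA sensor RIG-I, was at 13.69, 13.48 and 13.53 in 6MP+LPS arrays, against 11.44, 10.12 and 9.89 in 6MP arrays (8.49-fold, adjusted p = 0.00051). Trim21, an intracellular antibody receptor, was among the most even, with 9.63, 10.00 and 9.51, against 6.94, 7.03 and 7.26 (6.22-fold, adjusted p = 3.36e-05). Other members were spread in the 6MP group, where array 1 was high. Isg15, a ubiquitin-like protein gene, was at 9.20, 8.76 and 9.10, against 7.47, 4.63 and 4.32, and rose at least 6.42-fold (adjusted p = 0.0222), a call that ended without any one of 5 arrays, all but 6MP 1 (0.0607 to 0.118). Ifit1, which binds viral RNA ends, was at 13.41, 12.03 and 12.29, against 11.15, 7.75 and 5.63, and was not called (change 4.40, adjusted p = 0.108). The list's count was 20 without 6MP+LPS 1, 20 without 6MP+LPS 2, 19 without 6MP 2 and 18 without 6MP 3, and 39 without the 4 arrays that stand apart. Its mean level was 11.66, 11.11 and 10.71 in 6MP+LPS arrays, against 9.57, 7.84 and 7.42 in 6MP arrays.

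Among the factors behind these genes, Irf1 rose by 2.53 (adjusted p = 0.00144), Irf9 by 2.21 and Stat2 by 2.45, of which Irf9 lost its call without 6MP 3 (0.0553) and Stat2 without 6MP+LPS 2, 6MP 2 or 6MP 3 (0.0683, 0.0692 and 0.0799). Irf7, the amplifier of type I interferon, was at 11.98, 11.06 and 9.72 in 6MP+LPS arrays, against 9.15, 5.46 and 5.47 in 6MP arrays, and was not called although the groups did not overlap (change 4.23, adjusted p = 0.066). It was called with the replicate number as a block (0.0325, or 0.00428 on the 6 compared arrays) and without the 4 arrays that stand apart (0.00038). No interferon or interferon receptor gene of 23 measured was called by limma, though 3 had an unadjusted p under 0.05. The list's median was 0.11, and 13 of its genes lay under the silent level. Quantile normalization, centring or leaving out 6MP 2 each gave 1 called gene. Ifnb1, the first interferon of the TRIF arm, was at 5.53, 4.95 and 5.19, against 4.75, 4.81 and 5.05, all under that level. Ifngr2 had an adjusted p of 0.0433 at a change of 0.78, under the fold limit.

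MHC class I genes load peptides made by the proteasome onto the cell surface. Tap1, a subunit of the peptide transporter, was at 11.90, 11.72 and 10.63 in 6MP+LPS arrays, against 8.67, 7.99 and 7.94 in 6MP arrays, and rose 9.30-fold (adjusted p = 0.00215). The immunoproteasome subunit genes Psmb8 and Psmb10 each rose by 2.36 (Psmb8 was not called without 6MP 3, adjusted p = 0.0509), and Psmb9 had a change of 1.43 and was not called (adjusted p = 0.286). The class I heavy chain gene H2-K1 changed by 0.59 (adjusted p = 0.593). Of 18 genes 7 rose and none fell (4 without 6MP 3), with a median of 0.872, and of 10 class II genes none was called by limma (0 also at an unadjusted p under 0.05, median -0.129, or 0.0353 without 6MP+LPS 3 and 0.0492 without 6MP 1).

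Acod1, whose enzyme makes itaconate, was at 14.16, 15.43 and 15.52 in 6MP+LPS arrays, against 9.93, 7.30 and 5.92 in 6MP arrays, and rose 159.9-fold (log2 SE 0.90, adjusted p = 0.000837). Its 6MP arrays were the most scattered of the 15 largest rises. Nos2, the inducible nitric oxide synthase, rose 5.99-fold (adjusted p = 0.00923, or 0.0509 without 6MP 3), and the cystine transporter gene Slc7a11 8.01-fold. Of 21 genes of itaconate, nitric oxide and redox metabolism 8 rose and none fell, and Arg1, an arginine-using enzyme of another macrophage state, had a change of -1.30 that was not called (adjusted p = 0.478). For prostaglandins, Ptges rose 20.1-fold (adjusted p = 0.000325) and Ptgs2, the gene of COX-2, 5.39-fold (adjusted p = 0.0433), and Ptgs2 lost its call without any one of 5 arrays, all but 6MP+LPS 2 (0.0671 to 0.195), with the block (0.0906) and without the 4 arrays that stand apart (0.14).

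The C-type lectin gene Clec4e, a receptor for mycobacterial and fungal glycolipids, was at 11.72, 13.13 and 13.10 in 6MP+LPS arrays, against 8.19, 6.01 and 5.87 in 6MP arrays (62.3-fold, adjusted p = 0.00018). The 2 groups were closest in array 1. The formyl peptide receptor gene Fpr1 had a change of 4.93. Of 21 acute-phase and metal-binding genes 8 rose, led by Saa3 (34.9-fold, adjusted p = 0.00182), with 5 without 6MP+LPS 1, 6MP+LPS 2 or 6MP 3 and 4 without 6MP 2. Lcn2, a binder of bacterial iron carriers, rose 7.57-fold (adjusted p = 0.0489) and lost its call without 6MP+LPS 1, 6MP+LPS 2, 6MP 2 or 6MP 3 (0.112 to 0.211). Of 12 leukocyte adhesion genes 6 rose, with Icam1 at 10.82, 12.26 and 13.23, against 8.55, 7.70 and 8.07, and Vcam1 between 13.45 and 14.51, against 10.08 to 10.42 (16.0-fold and 15.4-fold, adjusted p of 0.000725 and 2.11e-05). Neither gene overlapped between the groups. Of the inflammasome and cell death genes 5 of 21 rose, among them Casp4, the cytosolic LPS sensor (3.26), Nlrp3 (at least 4.66-fold) and the necroptosis effector gene Mlkl (2.34), and none fell.

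**Figure D2:**
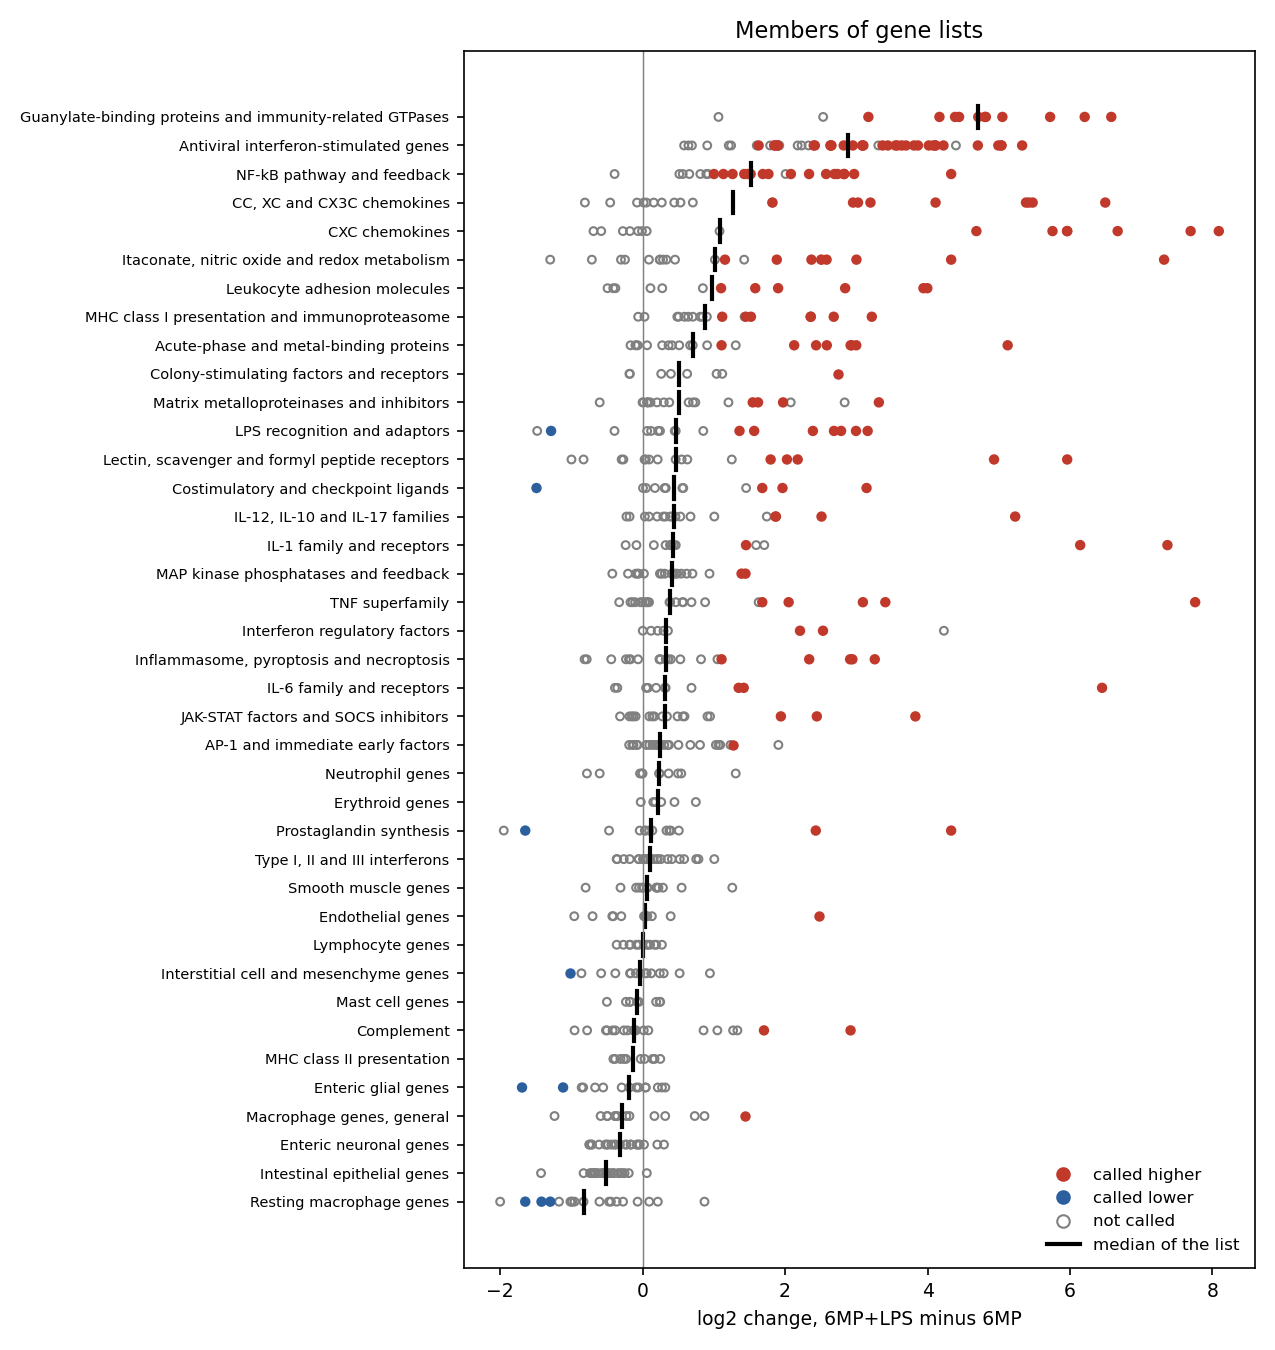
Log2 change (6MP+LPS minus 6MP) of each measured member of the innate and cell type lists, 1 point per gene, ordered by the median of the list (black bar). Called members are filled, and the interferon-inducible GTPases had the highest median (4.71) and the resting macrophage genes the lowest (-0.829).

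The 29 clusters called lower changed far less, with the largest fall at 1.69 on the log2 scale. Hpgds, a prostaglandin D2 synthase of tissue macrophages, was at 9.13, 8.87 and 8.93 in 6MP+LPS arrays, against 10.26, 10.58 and 11.02 in 6MP arrays, and fell 3.13-fold (adjusted p = 0.00471). Inpp5d, the phosphatase SHIP1 of blood cells, was at 6.40, 6.11 and 6.09, against 8.19, 7.44 and 7.67, and fell 2.96-fold (adjusted p = 0.00253). Nceh1, a cholesteryl ester hydrolase, was at 9.11, 9.37 and 9.54, against 10.73, 10.84 and 11.00, and fell 2.87-fold (adjusted p = 0.00077). In each the 3 arrays of a group lay close together and the groups stood clearly apart. Apobec1, an RNA-editing enzyme gene, fell 3.21-fold (adjusted p = 0.00482) and Mef2c, encoding a transcription factor, 2.45-fold (0.00369). These 5 were the ones of the 29 that were called without each single array, against 168 of the 291 clusters higher. Of them, Mef2c lost its call with the 2 compared groups alone in the fit.

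The other named falls lost their call when single arrays were left out. Fabp7, the brain-type fatty acid-binding protein of glia, had the largest fall, with 8.35, 8.85 and 7.79 in 6MP+LPS arrays, against 10.28, 9.32 and 10.47 in 6MP arrays (3.23-fold, adjusted p = 0.0436). Its groups came close, at 8.85 and 9.32 in array 2, and the call ended without 6MP+LPS 1, 6MP+LPS 3, 6MP 1 or 6MP 3 (0.0849, 0.186, 0.146 and 0.199), with the block (0.0898) and without the 4 arrays that stand apart (0.181). Pld4, a phospholipase-family nuclease of macrophages, fell 2.67-fold (adjusted p = 0.0108) and was not called without 6MP+LPS 2, 6MP 2 or 6MP 3 (0.051, 0.0592 and 0.0611). Vsir, the checkpoint ligand VISTA, fell 2.81-fold (0.0433) and was not called without 6MP+LPS 2, 6MP+LPS 3, 6MP 1 or 6MP 2 (0.146 to 0.182). The acid-sensing receptor gene Gpr65 fell 2.59-fold (0.0212) and Tnfaip8l2, a brake on innate signalling, 2.43-fold (0.0276), and both lost their call without any one array other than 6MP+LPS 1 (0.0646 to 0.0907 and 0.0611 to 0.115).

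The glutathione transferase gene Gstt2 fell 2.66-fold (adjusted p = 0.023), with no call without 6MP+LPS 2, 6MP+LPS 3, 6MP 1 or 6MP 3 (0.091 to 0.111) or with the block (0.0528), and the pyruvate dehydrogenase kinase gene Pdk2 2.42-fold (0.0235), with no call without 6MP+LPS 1, 6MP+LPS 2, 6MP 1 or 6MP 3 (0.0525 to 0.126) or without the 4 arrays that stand apart (0.148). Gprin3, a G protein-binding protein gene, fell at least 2.07-fold (0.0433), with no call without any array but 6MP+LPS 1 (0.0575 to 0.172). Fam72a had both group means under the silent level (4.28 in 6MP+LPS arrays and 5.73 in 6MP arrays), so no fold is given, and its call (0.0466) ended without any single array. Tcf21, a transcription factor gene of gut mesenchyme, was at 9.83, 9.82 and 9.37, against 10.43, 10.94 and 10.70, and fell 2.03-fold (0.0168), with no call without 6MP+LPS 3, 6MP 2 or 6MP 3 (0.0726 to 0.0803). Cdh19, a cadherin gene of glia, fell 2.17-fold (0.0382), with no call without any array but 6MP 1 (0.0803 to 0.177). After quantile normalization Tcf21, Cdh19, Fam72a, Fabp7 and Vsir lost their call too. Arrays centred on the median gave no call for Tcf21, Cdh19 or Fam72a, and the block on the 6 compared arrays none for Tcf21 or Fabp7. With the 2 compared groups alone in the fit, each fall of this paragraph lost its call, as did Fabp7, Vsir, Gpr65 and Tnfaip8l2.

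**Figure D3:**
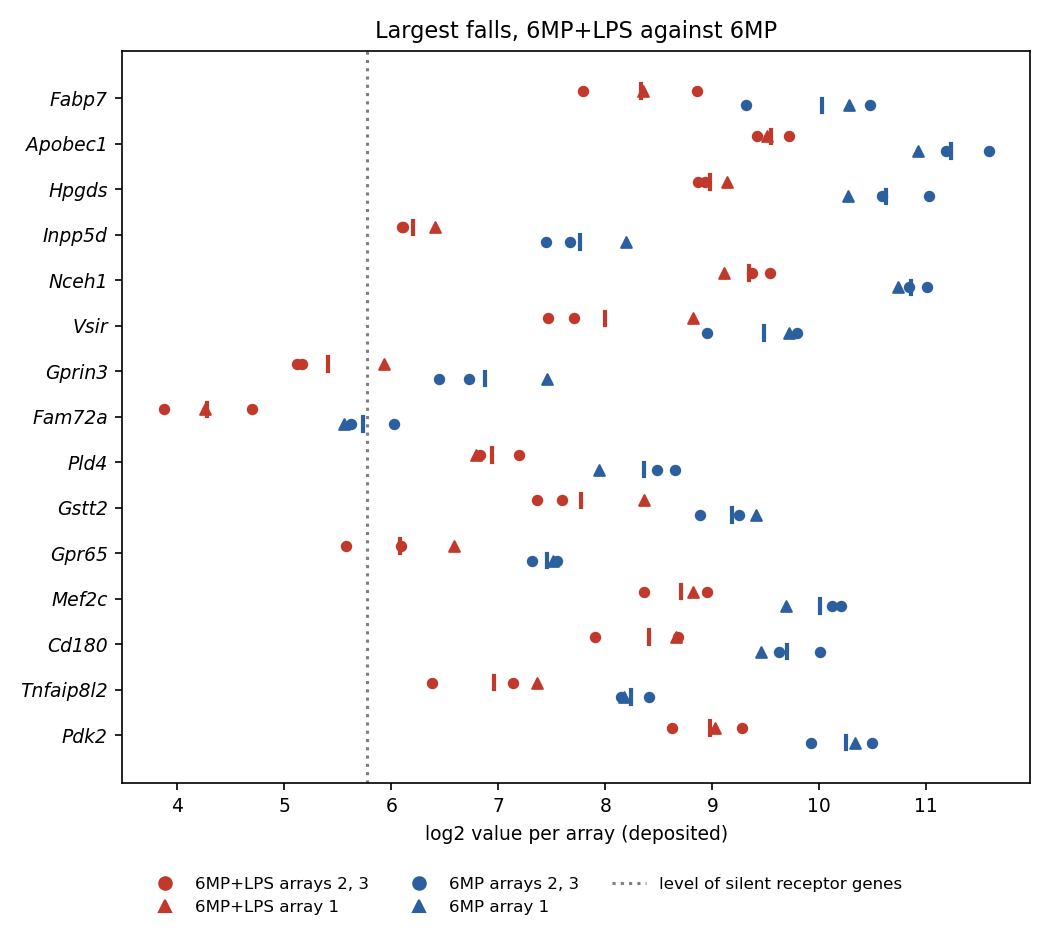
Log2 values of the 15 genes with the largest falls, 1 point per array (triangles are array 1), with group means as bars and the silent level dotted. The 15 genes were chosen among those whose groups did not overlap. The groups came closest in Vsir, where the highest 6MP+LPS array was at 8.82 and the lowest 6MP array at 8.95.

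Of 19 resting macrophage genes, 3 fell (Hpgds, Pld4 and Mef2c) and none rose, 16 changes were below 0 and the median was -0.829. The list's mean level was 7.55, 7.65 and 7.68 in 6MP+LPS arrays, against 8.09, 8.53 and 8.38 in 6MP arrays, so the groups did not overlap. The count of falls was 2 to 5 when single arrays were left out (5 without 6MP+LPS 1), and 6 without the 4 arrays that stand apart. Of 14 general macrophage genes 1 was called (2 without 6MP+LPS 1), Spi1, the transcription factor PU.1, which rose (change 1.44, adjusted p = 0.00308). Of that list 9 changes were below 0 (median -0.29), the lowest that of the Fc receptor gene Fcgr3 (-1.24, adjusted p = 0.0925, not called). Csf1r, the receptor of CSF1, was at 9.06, 10.07 and 10.04, against 9.59, 10.22 and 9.91, with overlapping groups. C1qa, a complement gene of tissue macrophages, was at 9.52, 9.99 and 10.65, against 10.83, 11.43 and 10.76, and was not called (adjusted p = 0.393). The macrophage share of the cultures was not measured, and its part in the changes was not tested.

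Among neural lists, 2 of 15 enteric glial genes fell (Fabp7 and Cdh19), with a median of -0.185. That count was 0 without 6MP+LPS 1, 6MP+LPS 3 or 6MP 3, after quantile normalization or with the 2 compared groups alone in the fit. It was 1 without 6MP+LPS 2, 6MP 1 or the 4 arrays that stand apart, with the replicate number as a block or with arrays centred on the median. Gfap, an intermediate filament gene of glia, was at 6.72, 6.56 and 6.83 in 6MP+LPS arrays, against 6.62, 6.24 and 6.61 in 6MP arrays. None of 23 enteric neuronal genes was called by limma (3 at an unadjusted p under 0.05, median -0.319, or 0.0169 without 6MP 1). In smooth muscle 0 of 14 genes were called by limma (0 at an unadjusted p under 0.05, median 0.0655, or -0.346 without 6MP+LPS 3 and -0.314 without 6MP 1).

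Of 23 intestinal epithelial genes none was called by limma and 5 had an unadjusted p under 0.05, beside 2479 of all 22206 clusters. Of the 23 changes, 22 were below 0 (median -0.514). The mean level of the list was 13.20, 11.77 and 11.91 in 6MP+LPS arrays, against 13.35, 12.64 and 12.46 in 6MP arrays. Array 1 was the highest of both groups, and so the groups overlapped. Epcam, an adhesion gene of epithelium, was at 15.18, 13.41 and 13.82, against 15.31, 14.76 and 14.41 (change -0.69, adjusted p = 0.577). Without the 4 arrays that stand apart 1 gene of the list was called lower and the median was -0.752. In the antiviral interferon-stimulated list, too, array 1 held the highest mean of both groups.

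**Figure D4:**
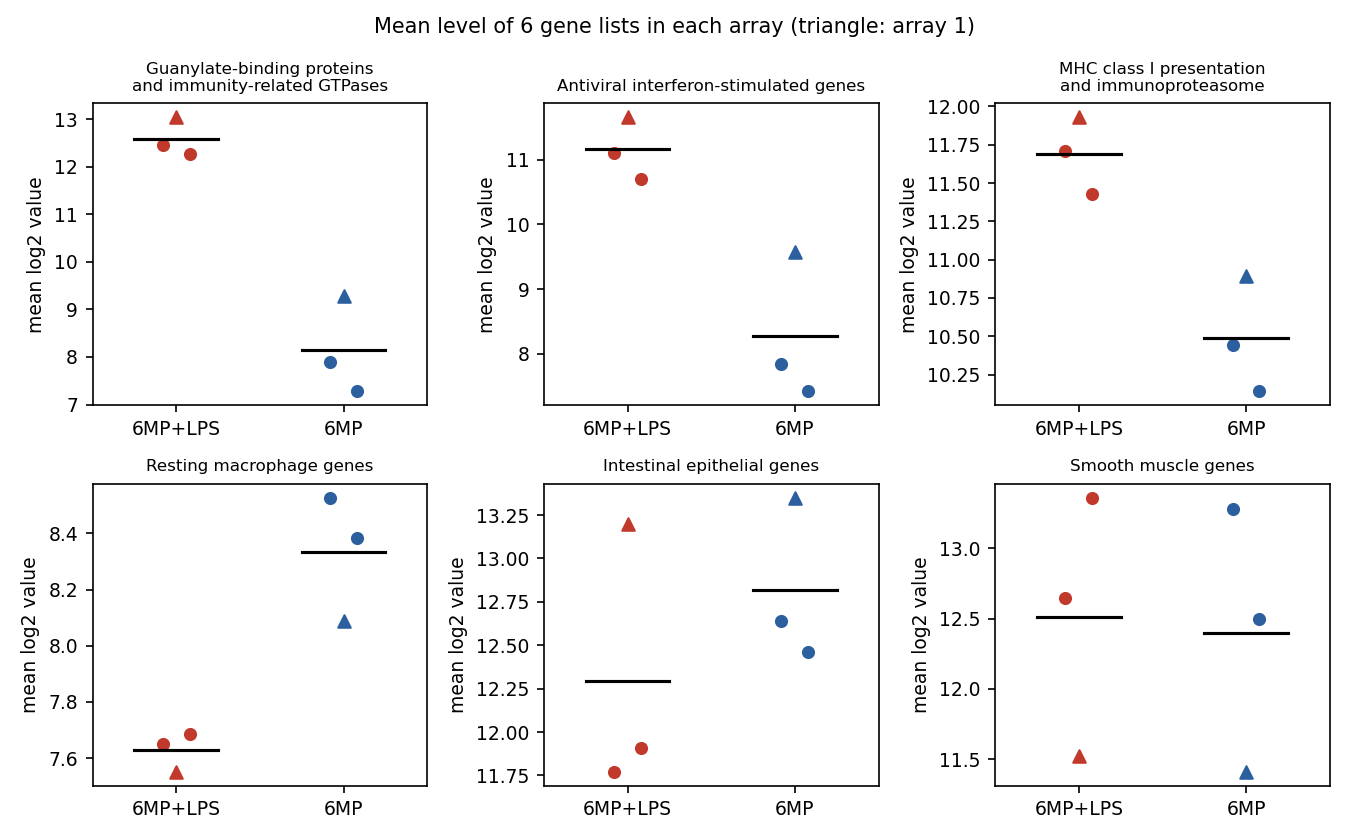
Mean log2 value over the measured members of 6 lists, 1 point per array (triangles are array 1). The interferon-inducible GTPase, antiviral and MHC class I lists lay higher in each 6MP+LPS array than in any 6MP array, the resting macrophage list lay lower in each, and the epithelial and smooth muscle lists overlapped.

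Lists tied to the action of a thiopurine were also read in this comparison, in which both groups held 6-MP. Of 28 DNA replication and mitosis genes none was called by limma, 6 had an unadjusted p under 0.05, and 27 changes were below 0 (median -0.406). The list's median was also below 0 in the LPS response without 6-MP (-0.253), and the median difference of the 2 responses was -0.0209. Cdk1, the mitotic kinase, was at 9.58, 10.26 and 9.91 in 6MP+LPS arrays, against 10.59, 10.93 and 10.66 in 6MP arrays, without overlap, and was not called (change -0.81, adjusted p = 0.0846). Of 15 genes of thiopurine metabolism and transport none was called by limma (2 at an unadjusted p under 0.05, median -0.137), with Tpmt at -0.78 (adjusted p = 0.409) and Hprt at -0.31 (adjusted p = 0.699). Of 13 genes of purine synthesis none was called by limma, nor at an unadjusted p under 0.05. Of 19 p53 target genes 1 was called, Fas (2 without 6MP+LPS 1 or after quantile normalization).

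The response was then set against that of LPS arrays to control arrays, which shares no array with it but shares its estimate of the spread. With only the 2 compared groups in each fit, 188 clusters were called in both responses. Without 6-MP, 335 clusters were higher (1.51%) and 21 lower (0.0946%). Of the clusters called with 6-MP, 279 were also called without it, all in the same direction, which is 87.2% of the calls with 6-MP and 78.4% of those without (178 shared without 6MP 3). For rises the shared part was 93.8% of the calls with 6-MP and 81.5% of those without, and for falls 20.7% and 28.6%. Over the 397 clusters called in either response, the median size of change was 1.74 with 6-MP and 2.01 without, and it was smaller with 6-MP in 272 and larger in 125. A cluster called in only 1 response was admitted by its change there, which favours that side. Of the 397, 77 entered only without 6-MP and 41 only with it, so this split is not a test of a weaker response. The changes correlated at r = 0.976 over these 397 clusters and 0.82 over all clusters, as a description across clusters, which are not independent replicates.

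No single cluster passed the test of a difference between the responses. The interaction contrast of limma called 0 clusters (lowest adjusted p of 1), with 434 at an unadjusted p under 0.05 (1.95%) and 67 of these also past the fold (0.302%). The interaction was not run by the methods' t-test. Of the 397 clusters called in either response, 15 had an unadjusted p under 0.05, with 11 smaller and 4 larger with 6-MP. Dram1, a p53-induced autophagy gene, changed by 1.49 with 6-MP and 2.35 without (difference -0.86, 95% interval -1.67 to -0.05, unadjusted p = 0.0392). Marchf1, a ubiquitin ligase of MHC class II, changed by 1.10 with 6-MP and 1.99 without (difference -0.89, interval -1.63 to -0.15). Lfng, a modifier of Notch, changed by -0.11 with 6-MP and -1.13 without (difference 1.03, interval 0.35 to 1.70), and Coq8a, of coenzyme Q synthesis, by -0.04 and -1.31 (difference 1.27, interval 0.58 to 1.96). The gap junction gene Gja5, dim in 6MP arrays, changed by 1.02 with 6-MP and 0.11 without (difference 0.90, interval 0.24 to 1.56). None of these passes the correction over all clusters.

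**Figure D5:**
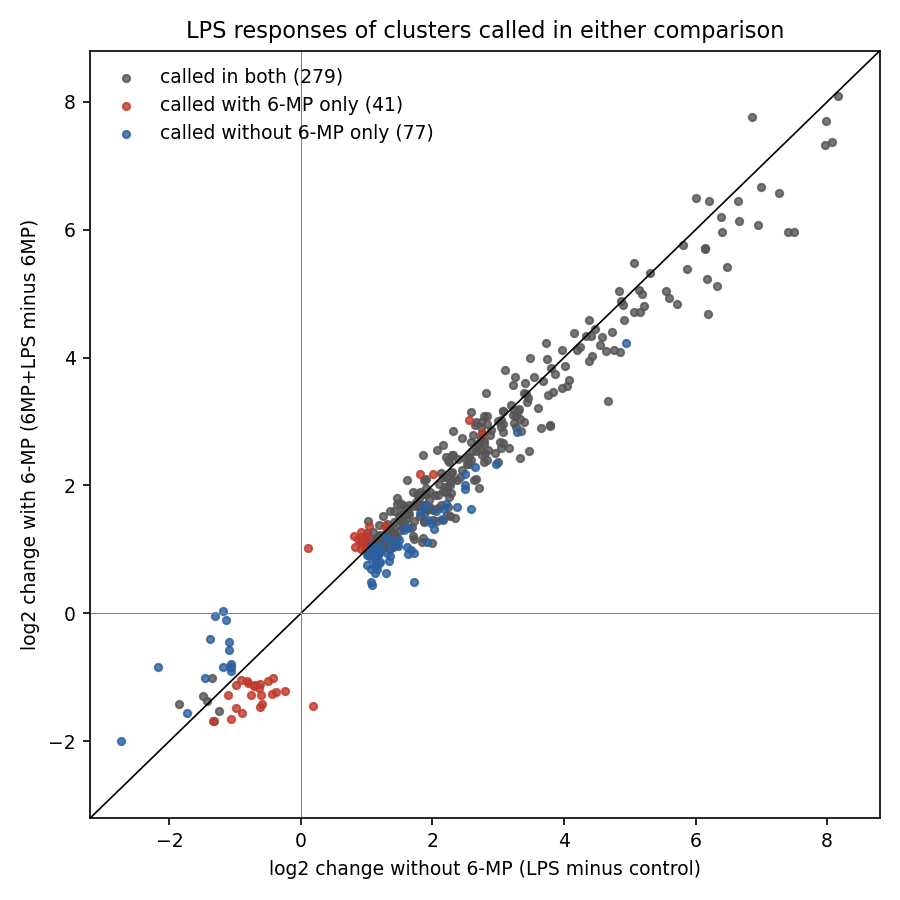
Log2 change with 6-MP (6MP+LPS minus 6MP, vertical axis) against that without 6-MP (LPS minus control, horizontal axis) for the 397 clusters called in either response, coloured by where they were called (both 279, only with 6-MP 41, only without 77). The points follow the diagonal, with 272 smaller in size with 6-MP, a split that depends in part on choosing clusters by these calls.

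The largest rises had wide intervals of difference. Cxcl2 changed by 8.09 with 6-MP and 8.17 without, Tnf by 7.76 and 6.86, Cxcl10 by 7.69 and 7.99 and Il6 by 6.45 and 6.65. Cxcl9 changed by 5.96 with 6-MP and 7.50 without (difference -1.54, interval -3.10 to 0.03, unadjusted p = 0.054), and Cxcl5 by 5.96 and 7.41 (difference -1.45, interval -3.27 to 0.37). For Ccl5 the changes were 5.42 with 6-MP and 6.48 without (difference -1.06, interval -2.16 to 0.04) and for Nlrp3 2.95 and 3.78 (difference -0.84, interval -1.79 to 0.12). These intervals hold both no difference and a difference of more than 2-fold. The median of the interferon-inducible GTPases was 4.71 with 6-MP and 4.90 without, that of the antiviral genes 2.89 and 2.81, and that of the NF-kB genes 1.52 and 1.60.

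Some genes were called in one response and not in the other. Of the 41 clusters called only with 6-MP, 18 rose and 23 fell, and 40 had the same sign without it. Rela, whose call ended without some single arrays, changed by 1.00 with 6-MP and 0.97 without. Hpgds changed by -1.65 with 6-MP and -1.07 without (difference -0.58, interval -1.37 to 0.21), and Inpp5d by -1.56 and -0.90 (difference -0.66, interval -1.35 to 0.02). Of the 77 called only without 6-MP, 76 had the same sign with it. Irf7 changed by 4.23 with 6-MP and 4.94 without, the IL-1 receptor antagonist gene Il1rn by 1.71 and 2.21, the collagenase gene Mmp13 by 2.84 and 3.28, and the fractalkine receptor gene Cx3cr1, whose 6MP+LPS mean lay under the silent level, by -2.0 and -2.73. The retinol transporter gene Stra6 changed by 0.95 with 6-MP and 1.72 without (difference -0.77, interval -1.42 to -0.12, unadjusted p = 0.0243), which does not pass the correction.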

How the data were processed

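Total RNA of 12 cultures was measured on Clariom S arrays, 3 per group. The values deposited by the authors, who used Transcriptome Analysis Console, are log2 signals per transcript cluster, and their normalization, summarisation and genome build are not given in the sources used here. Precision is limited by the number of arrays. The file has 28846 entries, of which 22206 were tested and 6640 are array controls. The platform table named 19572 clusters and the study's supplement 40, and 2594 stayed unnamed. limma 3.58.1 in R 4.3.3 was fitted to 4 group means over 12 arrays (8 residual, 4.25 prior degrees of freedom). Adjustment followed Benjamini and Hochberg across every tested cluster. A call required both a fold of 2 or more and an adjusted p below 0.05. The scripts were tested on simulated data.

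Named genes were up to 15 rises and 15 falls with the largest change among called clusters of 1 symbol without overlap, up to 4 called members per list, up to 5 genes per direction of the difference, and genes the study names. Others were chosen after their values were seen, as were examples that were not called. The members and gene lists were chosen with earlier results of these data known.

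Arrays of replicate number 1 deviated together in 6MP+LPS and 6MP (correlation of 0.596). For numbers 2 and 3 the same-number correlations (0.109 and 0.125) were lower than the crossed ones. Array 2 of 6MP+LPS correlated at 0.352 with array 3 of 6MP, and array 3 of 6MP+LPS at 0.337 with array 2 of 6MP. The numbers, which the labels give, are therefore not known to pair the arrays. The arrays that stand apart are number 1 with 6-MP and number 2 without it. A replicate block over all groups thus joins arrays that stand apart with arrays that do not. Main values carry no block. Alternatives were a replicate block, other fits, normalizations, filters and thresholds, the methods' t-test, each array left out, and the 4 arrays that stand apart left out. Promoters came from RefSeq (GRCm38.p6). Some items are not reported here.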

Additional observations from a re-analysis of the deposited data

How the results depend on the processing

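Of the genes described, 0 that were called changed sign in the alternatives run. This was largely fixed in advance, since the groups overlapped in no called cluster and leaving arrays out could not reverse a sign. Among genes not called, 16 did change sign (Fos, Csf1r and Cxcl12 among them). So did the medians of 14 of 50 lists, such as the smooth muscle and MHC class II lists. Over 210 genes and 15 settings, 2636 verdicts were the same, 454 lost a call and 48 gained one. The 291 clusters higher numbered 179 to 279 when single arrays were left out, and the methods' t-test called 0 (lowest adjusted p of 0.195). The 29 clusters lower numbered 13 to 60 when single arrays were left out, 6 when only the 2 groups were fitted, 0 by the methods' t-test, 125 at an unadjusted p, 53 with no limit on the fold or with a limit of 1.5, and 120 without the 4 arrays that stand apart. The difference of the responses gave 67 clusters at an unadjusted p with the fold and 0 with any single array left out. It was not run with 2 groups or by the methods' t-test. The 279 calls shared with the response without 6-MP numbered 178 to 272 when single arrays were left out, 424 at an unadjusted p and 0 by the methods' t-test. With the replicate number as a block the counts were 265 higher, 25 lower, 0 for the difference and 261 shared. The block on the 6 compared arrays alone, chosen after seeing the data, gave 321 higher and 59 lower. The cause of these changes was not tested. Of the clusters measured, 15100 had a mean above the level of silent genes, and below that level a change is only a bound.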

Other observations

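Without the 4 arrays that stand apart, 120 clusters were called lower, and the genes given here were picked from them after their values were seen. They held single genes that were not called over all arrays, such as the efferocytosis receptor gene Mertk (log2 change -1.40, adjusted p = 0.0112, against -0.99 and 0.26 over all arrays) and the thromboxane synthase gene Tbxas1 (-2.08 and 0.00814, against -1.95 and 0.178). Of the 19 resting macrophage genes 6 were called lower there. Of the 23 intestinal epithelial genes 1 was, the mucin-folding gene Agr2 (-1.46 and 0.0117, against -1.43 and 0.278). Outside that list, the tight junction gene Ocln (-1.23 and 0.0431, against -0.96 and 0.603) and the transcription factor gene Hnf4g (-1.34 and 0.00976, against -0.98 and 0.572) were also called lower. All values are from limma. Leaving these arrays out leaves 2 arrays a group.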
